A study of Mus musculus with 8 samples.

Results

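Microglia, the resident macrophages of the brain, carry a set of surface and secreted gene products by which they are told from other macrophages. The 9 genes described here, of 20340 in the count tables, are Tmem119, Siglech, Gpr34, Fcrls, Olfml3, Sparc, Selplg, Crybb1 and Slc2a5. They were chosen by name, with earlier results of these data known, and all 9 were measured in every library. The brain cells came from male C57BL/6J mice aged 8-9 weeks whose middle cerebral artery had been blocked for a time by a filament, which models a stroke in 1 hemisphere. There were 8 libraries, 1 for each combination of genotype label (WT, that is Prdx1+/+, or Prdx1-/-), side of the brain (ipsilateral, where the artery was blocked, or contralateral) and time (24 h or 48 h). All mice had the occlusion, so the contralateral hemisphere is the comparison tissue and no unoperated animal was used here. The labels do not give the number of animals in a library.

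In the healthy brain these genes depend on signals such as TGF-beta and CSF1, and many of them are known to fall when microglia respond to injury. Tmem119 encodes a transmembrane protein widely used as a microglial marker. Siglech encodes a sialic acid binding lectin also known from plasmacytoid dendritic cells, Gpr34 a receptor for lysophosphatidylserine, Fcrls a scavenger receptor related to Fc receptors, and Selplg the P-selectin ligand PSGL-1, carried by most leukocytes. Slc2a5 encodes the fructose transporter GLUT5. Olfml3 and Sparc encode secreted matrix proteins, and Crybb1 a beta-crystallin best known from the eye lens.

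The genes lie on 6 chromosomes in GRCm38 (mm10), by the GENCODE M21 annotation, and all are protein coding. Tmem119 (chromosome 5, 113793729 to 113800516) and Selplg (chromosome 5, 113818536 to 113832644) are neighbours on the minus strand with 18019 bases between them, and Crybb1 lies on the same chromosome (112255815 to 112269585). Fcrls (87250758 to 87263738) and Olfml3 (103722222 to 103738001) are on chromosome 3, Slc2a5 on chromosome 4 (150119283 to 150144169), Siglech on chromosome 7 (55768178 to 55778925), Sparc on chromosome 11 (55394500 to 55423183) and Gpr34 on the X chromosome (13632089 to 13640858). RefSeq promoter windows of build GRCm38.p6 were at hand for 6 of the 9 genes, and for Tmem119, Gpr34 and Selplg they were not used here. Each window here is the 250 bases before the RefSeq start, which differs from the GENCODE start for some genes: 214 bases of the Fcrls window, 61 of the Slc2a5 window and all 250 of the Sparc window lie inside the GENCODE gene, against 6 for Siglech, 5 for Crybb1 and 0 for Olfml3. The windows that lie almost wholly outside the gene are shown, for Crybb1 and Siglech, which were among the genes that fell most, and for Olfml3, which fell less. They are written 5′ to 3′ on the gene's strand, with capitals marking GAGGAA, the core bound by PU.1-type factors, and CAGAC, a SMAD-type element, on either strand.
Crybb1 (chr5:112255570-112255819, plus strand): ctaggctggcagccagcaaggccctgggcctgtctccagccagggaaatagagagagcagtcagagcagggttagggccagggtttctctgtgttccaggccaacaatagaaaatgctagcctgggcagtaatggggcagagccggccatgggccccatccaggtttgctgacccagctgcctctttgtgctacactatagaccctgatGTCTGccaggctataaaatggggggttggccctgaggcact
Siglech (chr7:55767934-55768183, plus strand): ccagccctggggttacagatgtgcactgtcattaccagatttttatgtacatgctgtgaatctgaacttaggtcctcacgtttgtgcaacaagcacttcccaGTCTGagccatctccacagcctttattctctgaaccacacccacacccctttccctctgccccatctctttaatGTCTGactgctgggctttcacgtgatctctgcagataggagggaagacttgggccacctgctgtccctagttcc
Olfml3 (chr3:103738002-103738251, minus strand): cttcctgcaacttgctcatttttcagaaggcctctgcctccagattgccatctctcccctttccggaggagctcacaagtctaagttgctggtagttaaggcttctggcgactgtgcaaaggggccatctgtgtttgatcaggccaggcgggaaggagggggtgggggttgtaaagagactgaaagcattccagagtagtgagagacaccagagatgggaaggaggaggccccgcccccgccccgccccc
GAGGAA was found in 1 of the 6 windows (Fcrls), against 23.3% of 32851 RefSeq windows of that length. CAGAC was found in 5 of the 6, all but Olfml3, against 42.2% of all windows. The AP-1 type letters TGANTCA were in 0 of the 6, against 6.75%. These are matches of letters and say nothing of binding.

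Cells were grouped by clustering, with the 9 genes and Prdx1 left out of it, and clusters were named from marker lists. Of 38025 cells used, 21104 were microglia-like, from 534 cells (ipsilateral, 48 h, labelled Prdx1-/-) to 4596 (contralateral, 24 h, labelled Prdx1-/-) per library. The median depth of these cells was 7110 to 7840.5 UMIs in the contralateral libraries and 11108 to 12219 UMIs in the ipsilateral ones. Levels are given as CPM, the UMI count of a gene scaled to a common library total, over the summed cells of a class. The summed level of 10 other microglial markers was 15498 to 22445 CPM in the contralateral and 9068 to 10285 CPM in the ipsilateral class, with none at 0. Summed markers of neutrophils ran from 210 to 328 CPM contralaterally and from 354 to 1295 CPM ipsilaterally, and those of monocytes and macrophages from 51.8 to 213 CPM and from 201 to 567 CPM. Their part in the results was not tested. Prdx1 itself stood at 6.19 and 7.41 CPM in the contralateral and ipsilateral 48 h libraries labelled Prdx1-/-, but at 89.4 and 616 CPM in the 24 h libraries with that label, against 262 to 736 CPM in the libraries labelled WT. The 24 h libraries are therefore called by their label throughout.

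Levels remaining in the injured hemisphere were averaged over 4 matched pairs of libraries as geometric means, that is from the mean log2 difference. Microglia-like cells held 33.2% to 43.7% of the contralateral level of Slc2a5, Crybb1, Siglech, Gpr34, Selplg and Tmem119. They held more of Sparc (55.9%), Olfml3 (71.3%) and Fcrls (93.2%). Slc2a5 stood at 167, 117, 133 and 83.3 CPM in the contralateral libraries (WT and Prdx1-/- at 24 h, then WT and Prdx1-/- at 48 h) and at 44.2, 29.7, 59.6 and 33.8 CPM in the ipsilateral libraries in the same order. Crybb1 stood at 405, 307, 283 and 171 CPM contralaterally and at 107, 78.0, 129 and 89.9 CPM ipsilaterally. For both genes every ipsilateral library was below every contralateral one.

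The surface receptors and adhesion molecules followed closely. Siglech went from 1048, 733, 846 and 567 CPM to 335, 229, 340.0 and 234 CPM, and Gpr34 from 1247, 941, 1315 and 794 CPM to 412, 284, 499 and 356 CPM. Selplg went from 2046, 1472, 1337 and 1093 CPM to 585, 514, 680.3 and 494 CPM. Tmem119 went from 1378, 1070.1, 1111 and 818 CPM to 477, 458, 582 and 383 CPM. The hemispheres did not overlap for any of these 4 genes.

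For Sparc, Olfml3 and Fcrls the hemispheres lay closer together. Sparc stood at 2096, 1637, 1738 and 1391 CPM contralaterally and at 953, 875, 1062 and 914 CPM ipsilaterally, without overlap. Olfml3 stood at 1071, 887, 1206 and 949 CPM against 602, 624, 1024 and 730.3 CPM, so that the ipsilateral 48 h library labelled WT lay within the contralateral range. Fcrls stood at 1777, 1496, 1846 and 1233 CPM against 1529, 1492, 1701 and 1177 CPM, with the hemispheres overlapping widely. In all, 7 of the 9 genes had every ipsilateral library below every contralateral one, against 22.4% of the 13318 genes tested.

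**Figure D1:**
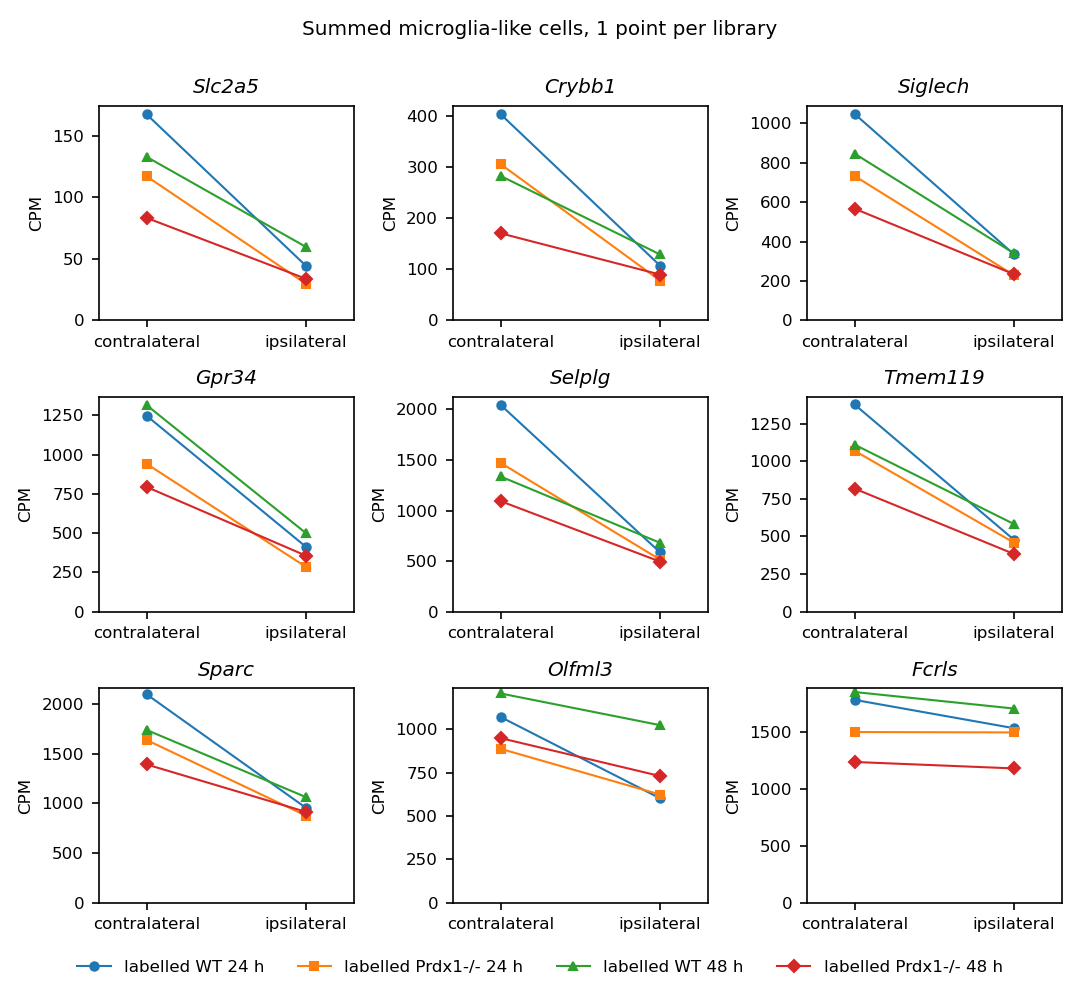
Level of each gene in summed microglia-like cells (CPM, linear axis from 0) in the contralateral and ipsilateral hemisphere, 1 point per library, with lines joining libraries of the same genotype label and time. The lines fall steeply for Slc2a5, Crybb1, Siglech, Gpr34, Selplg and Tmem119, less for Sparc and Olfml3, and lie nearly flat for Fcrls.

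The quasi-likelihood test of edgeR, fitted to hemisphere, genotype label and time and adjusted over all genes by Benjamini-Hochberg, placed 8 of the 9 genes lower in the ipsilateral hemisphere at an adjusted p under 0.05, where 23.6% of all tested genes were lower. The log2 fold changes were -1.53 for Slc2a5 (SE 0.15, adjusted p = 0.000246), -1.42 for Crybb1 (SE 0.19, adjusted p = 0.00123), -1.41 for Siglech (SE 0.10, adjusted p = 2.3e-05) and -1.40 for Gpr34 (SE 0.11, adjusted p = 3.8e-05). Selplg fell by 1.28 on the log2 scale, Tmem119 by 1.11 and Sparc by 0.76. Olfml3 changed by -0.41 (SE 0.12, adjusted p = 0.0207) and Fcrls by -0.024 (SE 0.12, adjusted p = 0.886). The call of Olfml3 was lost without any 1 of 4 libraries (adjusted p from 0.0572 to 0.0945), which are named in the closing section. The median of the 9 was -1.28, against -0.0069 over all genes tested. With 1 library per combination, the libraries of the other labels stand in for replicates, and the p-values measure the spread between libraries, which may be technical.

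The size of the difference was compared between genes over the 4 pairs of libraries that share a genotype label and a time. By geometric mean, the level remaining on the ipsilateral side averaged 33.2% for Slc2a5, 35.7% for Crybb1, 35.9% for Siglech and 36.1% for Gpr34. It averaged 38.9% for Selplg and 43.7% for Tmem119. It averaged 55.9% for Sparc, 71.3% for Olfml3 and 93.2% for Fcrls. In single pairs more than 50% remained of Tmem119 (52.4%) and Selplg (50.9%) in the 48 h pair labelled WT and of Crybb1 (52.6%) in the 48 h pair labelled Prdx1-/-. Sparc, Olfml3 and Fcrls had the 3 smallest differences, in that order, in 4 of 4 pairs. Among the other 6 the ranking by size was not stable: the neighbours Crybb1 and Siglech, and Siglech and Gpr34, each changed places in 2 of 4 pairs, and Gpr34 fell most in the 48 h pair labelled WT. Tmem119 fell less than Siglech and than Gpr34 in 4 of 4 pairs, by 0.28 ± 0.16 and 0.28 ± 0.24 on the log2 scale (SD, n = 4 pairs).

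**Figure D2:**
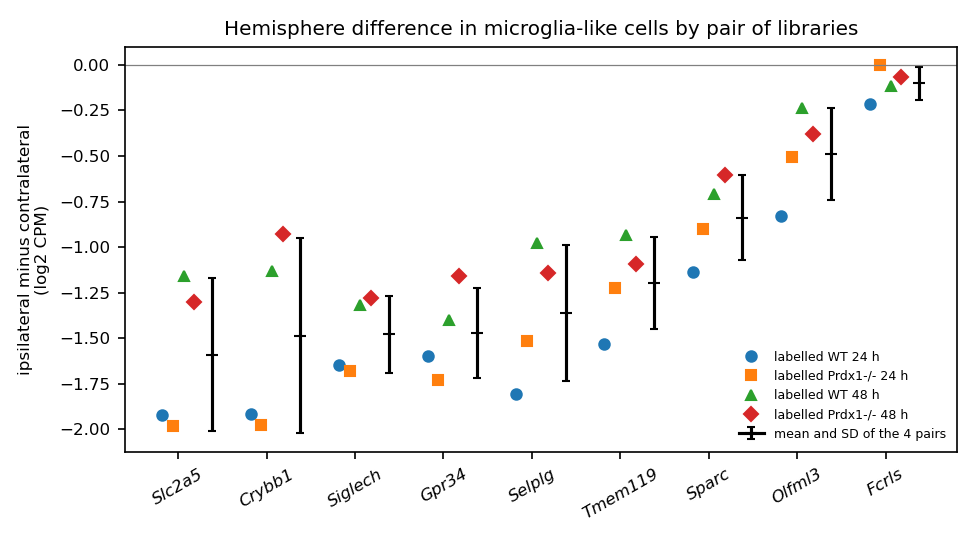
Difference between hemispheres in microglia-like cells (ipsilateral minus contralateral, log2 CPM) for each gene and pair of libraries, with the mean and SD of the 4 pairs. The genes run from Slc2a5, with a mean of -1.59, to Fcrls, with a mean of -0.10. For every gene but Fcrls both 24 h pairs lie below both 48 h pairs.

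The fall was already present at 24 h: in the 24 h libraries alone edgeR placed 8 of the 9 genes lower, against 23.7% of all genes, and in the 48 h libraries alone 7 of the 9, against 15.8%. The 24 h pairs of Slc2a5 differed by -1.92 (labelled WT) and -1.98 (labelled Prdx1-/-), and the 48 h pairs by -1.16 and -1.30. Crybb1 differed by -1.91 and -1.97 at 24 h and by -1.13 and -0.93 at 48 h. Both 24 h pairs lay below both 48 h pairs for the other genes too, except Fcrls. Siglech, for example, differed by -1.65 and -1.68 at 24 h and by -1.32 and -1.28 at 48 h. The change of the hemisphere difference with time was 0.86 for Crybb1 (SE 0.18, adjusted p = 0.0941) and 0.69 for Slc2a5 (SE 0.16, adjusted p = 0.131) by edgeR's interaction term. By that term 0 of the 9 genes passed, against 0.0676% of all genes, and 3 of the 9 had an unadjusted p under 0.05, against 13.4%. DESeq2 called 1 of the 9, Crybb1, against 0.436% of all genes, and limma-voom 0. On the contralateral side the level of Crybb1 differed between 48 h and 24 h by -0.51 (labelled WT) and -0.84 (labelled Prdx1-/-) on the log2 scale, and on the ipsilateral side by 0.27 and 0.20. Olfml3 was higher at 48 h than at 24 h in 4 of 4 matched comparisons, by 0.77 at the most (ipsilateral, labelled WT). Averaged over hemispheres, the time term called 0 of the 9 genes by edgeR, against 11.5% of all genes, and 1 of the 9, Olfml3, had an unadjusted p under 0.05, against 28.1%. DESeq2 and limma-voom also called 0 of the 9.

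In the 4 ipsilateral libraries the lowest levels of 8 of the 9 genes, all but Fcrls, were in a single cluster, given here as a description since clusters are drawn from the cells' own expression. Its leading genes were Mmp12, Spp1, Lpl and Mt2, and it made up 36.7% (labelled WT) and 18.5% (labelled Prdx1-/-) of the ipsilateral class at 24 h and 18.7% and 11.8% at 48 h, against 0.231% to 0.947% of the contralateral class. In its 1147, 397, 113 and 63 ipsilateral cells Slc2a5 stood at 1.86, 2.04, 0 and 1.19 CPM and Crybb1 at 4.72, 6.48, 5.66 and 5.97 CPM. Fcrls stood there at 878, 1045, 791 and 796 CPM, a median of 57.0% of the level in the whole contralateral class, while the cluster led by Fosb was lower for Fcrls in the 24 h library labelled Prdx1-/- (670 CPM) and the 48 h library labelled WT (784 CPM). The corresponding medians were 17.3% for Olfml3, 14.8% for Sparc, 8.27% for Tmem119, 7.11% for Gpr34, 6.29% for Selplg, 6.24% for Siglech, 2.06% for Crybb1 and 1.27% for Slc2a5. Their spread was wide, from 2.83% to 20.3% for Gpr34 and from 4.79% to 12.9% for Tmem119 over the 4 libraries, so these medians give no firm ranking. The summed level of 10 monocyte and macrophage markers was 213 CPM in this cluster, 160 CPM in the other microglia-like clusters and 18647 CPM in monocyte/macrophage-like cells, with none at 0 in the cluster and 7 of the 10 above the other microglia-like clusters, among them Thbs1 (101 against 18.8 CPM). The summed level of 10 microglial markers was 4632 CPM in this cluster, against 16639 CPM in the other microglia-like clusters and 1013 CPM in monocyte/macrophage-like cells, and P2ry12 stood at 30.3, 889 and 22.7 CPM. The part of these differences in the result was not tested.

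The rest of the ipsilateral class also held less. Without that cluster, an alternative added after the data were seen, 7 of the 9 genes were lower by edgeR, against 20.9% of all genes. Siglech then fell by 1.03 on the log2 scale (adjusted p = 5.2e-05), Slc2a5 by 1.10 and Sparc by 0.41. Olfml3 differed by -0.045 (SE 0.099, adjusted p = 0.737) and Fcrls by 0.20 (SE 0.11, adjusted p = 0.172), so neither passed the test outside this cluster. Olfml3 also missed the threshold in the 48 h libraries alone (-0.27, adjusted p = 0.0633).

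Within single clusters the median differences between hemispheres were smaller in size than in the class as a whole for the genes other than Fcrls. There were 22 comparisons of a cluster in a matched pair of libraries, each with at least 20 cells on both sides. The median difference was -0.22 for Siglech, -0.36 for Slc2a5, -0.36 for Crybb1 and -0.49 for Gpr34 on the log2 scale. It was above 0 for Olfml3 (0.11) and Fcrls (0.21), so for Olfml3 its sign was opposite to that in the class as a whole. Crybb1 was lower on the ipsilateral side in 21 of the 22, Tmem119 and Selplg in 19, Olfml3 in 8 and Fcrls in 7. The cluster led by P2ry12 was the largest on the mean of the contralateral libraries. It held 57.9%, 30.0%, 30.0% and 20.6% of the contralateral class but 0.562% to 6.43% of the ipsilateral class. In the contralateral 48 h library labelled Prdx1-/- a cluster led by Ccl12 and Gas6 was larger, at 30.4%. A cluster led by the cytokine genes Tnf, Ccl12 and Il1a had low levels also in contralateral cells, with a mean of 271 CPM for Siglech against 1267 CPM in the cluster led by P2ry12.

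Cells were also ranked by their summed stroke-associated genes (Spp1, Lpl, Lgals3 and others of a list of 20) and split into 5 ranges of equal size. A range is not a cell type, and 2397 to 3107 cells lay within 10% of each of the 3 lower limits and 1381 within 10% of the highest. In the 3 ipsilateral libraries with at least 20 cells in the lowest range, Siglech, Selplg, Crybb1, Gpr34 and Tmem119 had medians of 71.6%, 72.5%, 77.2%, 77.6% and 79.3% of their lowest-range level already in range 2. Over the 3 libraries range 2 spanned 72.6% to 110.6% for Crybb1, 68.7% to 100.8% for Gpr34 and 69.5% to 99.3% for Tmem119, so that it lay below the lowest range in every library for Siglech, Selplg and Tmem119 only among these 5. Slc2a5 stood at 88.3% there and at 3.47% to 13.6% over the 3 libraries in the highest range, where Siglech stood at 9.12% to 25.1%. Sparc kept a median of 89.6% (50.8% to 93.0% over the libraries) and Olfml3 87.0% (50.3% to 106%) in range 4. They came to 42.5% and 36.6% in the highest. In the ipsilateral 24 h library labelled WT, Sparc already went from 2124 CPM in range 1 to 1080 CPM in range 4. Olfml3 went there from 1285 to 646 CPM. Gpr34 had medians of 72.2%, 74.8% and 34.2% in ranges 3, 4 and 5. Medians above the lowest range were seen for Olfml3 in ranges 2 and 3 (107% and 104%) and for Fcrls in ranges 2 to 5 (133%, 140.5%, 143% and 110%), the latter with 58.0% to 111% over the libraries in range 5. In the contralateral libraries the highest range ran from 25.5% for Slc2a5 to 88.0% for Fcrls.

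**Figure D3:**
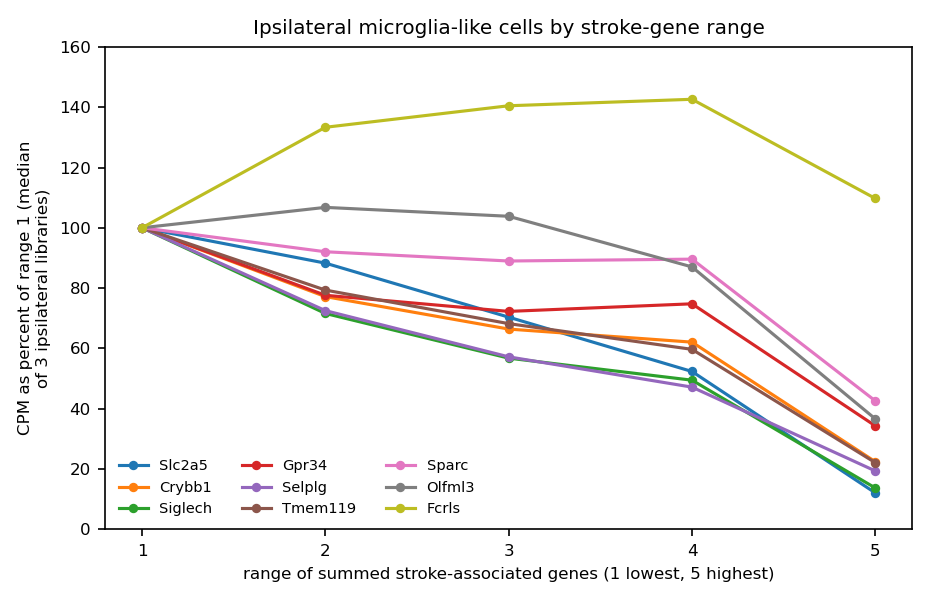
Level of each gene in ipsilateral microglia-like cells by range of summed stroke-associated genes, as percent of the level in range 1 of the same library, median of 3 libraries. In these medians Fcrls stays above 100%, Sparc and Olfml3 fall mainly between ranges 4 and 5, and Siglech and Selplg fall from range 2 on. Gpr34 changes little from range 2 to range 4. Single libraries differ from the medians: Sparc spans 50.8% to 93.0% in range 4 and Fcrls 58.0% to 111% in range 5.

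Counted per cell, at 5000 UMIs drawn from each cell, the contralateral cells held a mean of 7.99, 7.65, 7.91 and 6.75 of the 9 transcripts and the ipsilateral cells 5.24, 5.59, 6.36 and 5.37, in the library order above. Between 40 and 497 microglia-like cells per library were too shallow to be drawn. Fcrls was found in 85.7% to 98.4% of contralateral and 80.6% to 93.3% of ipsilateral cells, and Siglech in 81.9% to 93.8% and 55.1% to 63.9%. Without drawing, the shares were 86.0% to 98.7% and 88.4% to 95.7% for Fcrls, and 89.4% to 98.1% and 71.0% to 77.8% for Siglech. Ipsilateral neutrophil-like cells, which should lack both, showed Fcrls in 2.20% to 8.50% and Siglech in 0.178% to 3.30% at the same depth. These shares cover only the deeper cells. The median depth of neutrophil-like cells was 3480 (labelled WT) and 3977.5 UMIs (labelled Prdx1-/-) in the ipsilateral 48 h libraries, so most there were too shallow. In the cluster led by Mmp12 and Spp1, Fcrls was found in 65.2% to 80.0% of ipsilateral cells, Sparc in 50.5% to 58.3%, Crybb1 in 1.79% to 3.37% and Slc2a5 in 0% to 1.67%.

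The edgeR estimates for the genotype label were below 0 for all 9 genes, though none passed the threshold over both times. In the 4 matched comparisons Siglech differed by -0.52, -0.55, -0.58 and -0.54 (log2 CPM, contralateral and ipsilateral at 24 h, then at 48 h), and Slc2a5 by -0.52, -0.57, -0.67 and -0.82. Tmem119 differed by -0.36, -0.058, -0.44 and -0.60, and Fcrls by -0.25, -0.035, -0.58 and -0.53. Of the 9 genes 8, all but Olfml3, were lower in 4 of 4 comparisons, against 12.8% of all tested genes. By edgeR 0 of the 9 passed, as did 0% of the 13318 genes, with 8 of the 9 at an unadjusted p under 0.05 against 11.1% of all genes. DESeq2 placed 3 of the 9 lower, against 0.511% of all genes, and limma-voom called 0. Without the cluster led by Mmp12 and Spp1, edgeR placed 3 lower, against 0.334% of all genes. In the edgeR fit that kept this cluster, where 0 of the 9 passed, the nearest was Siglech, at -0.54 (SE 0.09, adjusted p = 0.0976).

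The labels were also compared at each time. In the 48 h libraries, where Prdx1 transcripts were nearly absent under the label Prdx1-/-, 8 of the 9 genes were lower by edgeR, against 2.29% of 12405 tested genes. Slc2a5 fell by 0.79 on the log2 scale (adjusted p = 8.2e-05), Siglech by 0.61 and Fcrls by 0.61, while Sparc differed by -0.32 (SE 0.11, adjusted p = 0.113). In the 24 h libraries edgeR called 0 of the 9, against 0% of all genes, and 4 of the 9 had an unadjusted p under 0.05, against 15.5%; DESeq2 and limma-voom were not run on these alone. Markers of other cells moved with the 48 h labels: summed monocyte and macrophage markers stood at 213 CPM (contralateral) and 567 CPM (ipsilateral) under the label Prdx1-/-, against 73.7 and 431 CPM under WT, and summed neutrophil markers at 297 and 1295 CPM against 242 and 354 CPM. The contralateral 48 h library labelled Prdx1-/- also stood apart in transcripts per cell, with 63.6% of its cells holding at least 7 of the 9 at 5000 UMIs, against 85.1% to 92.3% in the other contralateral libraries. The part of these in the label difference was not tested. Each of these fits rests on 4 libraries with 1 residual degree of freedom, and the cluster led by Mmp12 and Spp1 was also smaller under the label Prdx1-/- in both ipsilateral comparisons. Genotype label and single-library differences cannot be told apart. The hemisphere difference did not pass a test for dependence on the label for any of the 9 genes by edgeR, DESeq2 or limma-voom. By edgeR 0% of all genes passed, and 0 of the 9 had an unadjusted p under 0.05, against 1.58% of all genes. The estimates ran from -0.12 (Slc2a5, SE 0.32) to 0.17 (Sparc, SE 0.23).

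**Figure D4:**
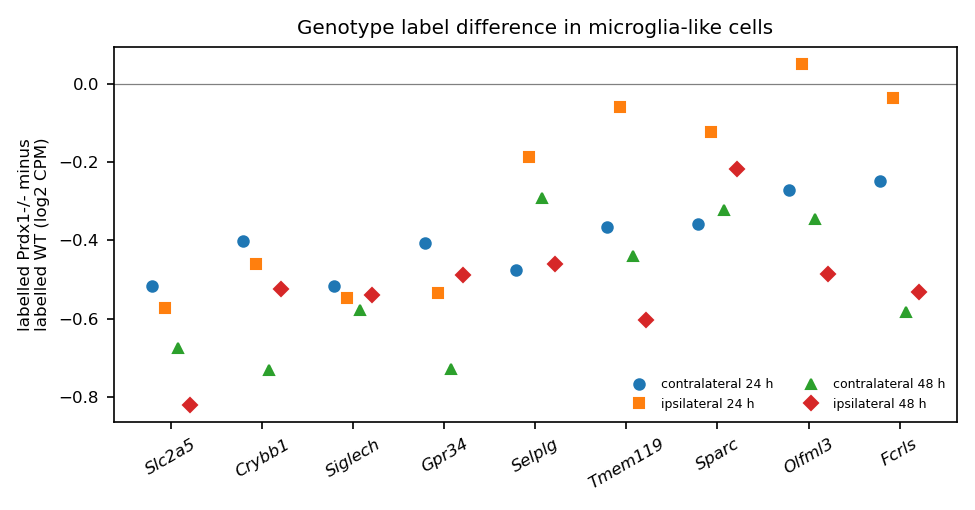
Difference between genotype labels in microglia-like cells (labelled Prdx1-/- minus labelled WT, log2 CPM) for each gene in the 4 matched comparisons. All points but Olfml3 in the ipsilateral hemisphere at 24 h lie below 0.

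Among other classes, 4 of the genes stood out from the rest of the 9 in particular cell types. Some classes held all 9. Medians in erythroid-like cells were 32.5% to 54.0% of the microglia-like level over 2 contralateral libraries and 21.2% to 53.5% over 3 ipsilateral ones. In ependymal and choroid plexus-like cells they were 27.4% to 56.5% in 1 contralateral library and 23.6% to 38.9% over 2 ipsilateral ones. The part of microglial RNA in these classes was not tested. Selplg stood at 562 to 1122 CPM in ipsilateral neutrophil-like cells, a median of 139% of the microglia-like level of the same library. Its ipsilateral median in T and NK-like cells was 96.7%. Contralaterally, where the microglia-like level was higher, the medians were 55.2% and 38.7%, at 578 to 1076 CPM and 497 to 582 CPM. Siglech reached 2003 CPM in the 26 plasmacytoid dendritic-like cells of the ipsilateral 24 h library labelled Prdx1-/- (interval for counting error 1828 to 2189), 874% of the microglia-like level. Sparc, which vascular cells secrete into their matrix, stood at 1764 CPM over all 103 endothelial-like cells. These were pooled, as no library held 20 of them, and the other 8 genes stood there at 36.9 CPM (Slc2a5) to 687 CPM (Fcrls). Sparc also stood at a median of 106% of the ipsilateral microglia-like level in an unnamed cluster led by Vtn, Ptn and Rgs5. The other 8 genes stood at 22.7% to 53.4% in that cluster. Fcrls stood at 882 and 1062 CPM in the border macrophage-like cells of the 2 ipsilateral libraries with at least 20 of them, a median of 64.5% of the microglia-like level, against 7.17% to 18.0% for the other 8 genes. Over 4 contralateral libraries the Fcrls median was 37.7%, against 7.17% to 16.1% for the other 8.

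In neutrophil-like cells the 8 genes other than Selplg stood at contralateral medians of 5.05% to 7.33% of the microglia-like level. Their ipsilateral medians were 0.141% to 1.01%. In ipsilateral monocyte/macrophage-like cells Selplg stood highest, at 124 to 146 CPM, a median of 25.6%. Tmem119 stood there at 18.7 to 45.5 CPM, a median of 6.06%. The medians of Crybb1 (2.53%), Olfml3 (1.59%) and Fcrls (1.25%) there were also above the ipsilateral neutrophil-like range. Siglech (0.467%), Gpr34 (0.596%), Sparc (0.551%) and Slc2a5 (0.403%) lay within it. Within them, the cluster led by Pf4, Fabp5, Ms4a7 and Gpnmb had medians of 53.4 CPM for Tmem119, 47.2 CPM for Fcrls and 32.2 CPM for Olfml3, but 1.34 CPM for Siglech. The cluster led by Plac8 and Lyz2 had 6.76 CPM for Tmem119 and 0.702 CPM for Siglech. The genes thus did not keep 1 ratio between these clusters. In an unnamed cluster led by H2-Ab1 and H2-Eb1, Siglech had an ipsilateral median of 8.84% (2.96% to 22.1% over libraries). Selplg stood there at 58.1%, and the other genes at 0% to 1.78%.

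**Figure D5:**
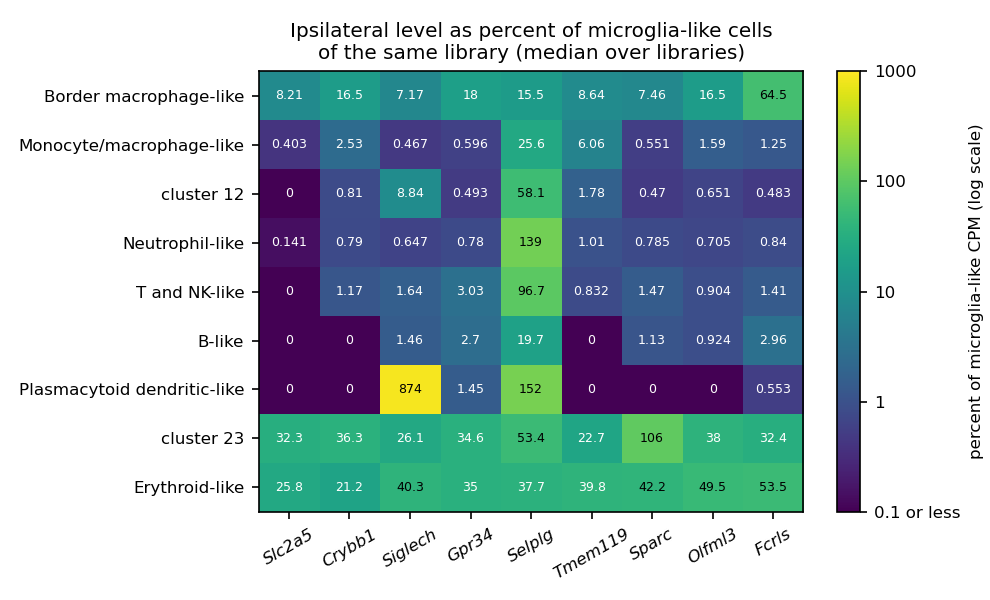
Level of each gene in 7 named classes and 2 unnamed clusters of the ipsilateral hemisphere, as percent of the level in microglia-like cells of the same library (median over libraries with at least 20 cells, colours on a log scale). Selplg is high in neutrophil-like and T and NK-like cells, Siglech in plasmacytoid dendritic-like cells, Sparc in cluster 23 and Fcrls in border macrophage-like cells.

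The low levels in other classes differed by hemisphere too. In monocyte/macrophage-like cells 8 of the 9 genes were lower ipsilaterally by edgeR, against 3.01% of genes, with Siglech at -4.09 (SE 0.31) and Tmem119 at -1.25 (SE 0.16). In neutrophil-like cells 8 of the 9 were lower, against 1.33% of genes, while Selplg differed by 0.30 (SE 0.24, adjusted p = 0.489). In T and NK-like cells 4 of 7 tested were lower, against 0.586% of genes, and Selplg differed by -0.013 (SE 0.11). The summed level of 10 microglial markers in neutrophil-like cells moved the same way, from 588 to 2254 CPM contralaterally and from 310 to 567 CPM ipsilaterally, and its part in these differences was not tested.

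Other genes of the resting microglial state mostly fell as well, set against the 23.6% of all tested genes that were lower and the 23% that were higher in the same fit. Of 24 further homeostatic genes tested, edgeR placed 21 lower in the ipsilateral hemisphere, against that 23.6%. The median log2 fold change of the 24 was -0.85. Entpd1, the ectonucleotidase CD39, went from a mean of 259 to 88.8 CPM, and the transcription factor gene Sall1 from 200.3 to 90.3 CPM. Of 17 tested genes of TGF-beta and CSF1 signalling, 9 were lower and 1, the ligand gene Csf1, was higher. The receptor gene Tgfbr1 went from 672 to 284 CPM (log2 fold change -1.16, adjusted p = 2.3e-05) and Csf1r from 2360 to 1411 CPM, while Spi1, the gene of PU.1, stood at 419 and 421 CPM. Of 25 tested family relatives, 12 were lower and 5 higher, the latter near the share over all genes. The lists overlap, so their counts are not separate. P2ry12, P2ry13 and Cd33 are also among the 24 homeostatic genes, as is Csf1r of the TGF-beta and CSF1 list. The 24 also hold the 10 microglial markers by which the class was named. P2ry12, a purinergic receptor related to Gpr34, fell by 1.47 on the log2 scale, and Siglece by 0.76, whereas the glucose transporter gene Slc2a1 rose by 0.86 (adjusted p = 0.00299) while its relative Slc2a5 fell. Of 19 tested stroke-associated genes, 15 were higher and 1 (Apoe) lower. The median over all tested genes was -0.0069.

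Over 57 sums of 10 classes and 8 libraries, the genes most like each member in log2 CPM were described by Pearson's r, across sums that share libraries. Olfml3 was most like Cx3cr1 (r = 0.96), Fcrls most like Slco2b1 (r = 0.95), Tmem119 most like Cx3cr1 (r = 0.94) and Gpr34 most like Plxdc2 (r = 0.93). Slc2a5 was most like Crybb1 (r = 0.92), and Crybb1 most like Tmem119 (r = 0.93). Sparc was most like Ecscr (r = 0.95), Siglech like Plxdc2 (r = 0.90) and Selplg, with the weakest match, like Spata13 (r = 0.77).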

How the data were processed

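Single-cell 3' RNA sequencing (10x Genomics) was done on live cells sorted from enzyme-dissociated, Percoll-cleared hemispheres, per the labels' protocols. The authors deposited unnormalized UMI counts for each cell. The submitters' processing notes list Cell Ranger, Seurat and mm10 and give no version or role. The tables held 39945 cells and 436780956 UMIs, and 203 of 39742 barcodes occurred in more than 1 library.

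A minimum of 200 genes and a maximum of 10% mitochondrial UMIs left 39608 cells, of which 1583 top-scoring doublets were removed. Clustering (scanpy 1.11.5, leidenalg 0.10.2; 2000 variable genes without the 9 members and Prdx1, 30 components, 15 neighbours, resolution 1.0) pooled all libraries. Clusters took the class of the highest marker score, if it was 1.5 times the next. This naming was settled with the clusters in view. The cluster led by Mmp12 and Spp1 was at first left unnamed because a choroid plexus score was close. It entered the microglia-like class when a competing class was required to have at least 3 markers detected in 10% of cells, and results are given with and without it. A cluster led by granulocyte progenitor genes was left unnamed by hand.

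Counts were summed per class and library and tested with edgeR 4.0.16 in R 4.3.3 (quasi-likelihood, robust, TMM, filterByExpr, Benjamini-Hochberg adjusted p under 0.05). The fit was tested on simulated data. DESeq2 and limma-voom were among the alternatives. CPM from a 3' kit are compared within a gene. Intervals of counts are exact Poisson intervals at 95% and cover counting error only. The members and lists were chosen with earlier results of these data known. Genes named from the other lists had the smallest p for hemisphere, or were chosen after their values were seen (Spi1, Slc2a1, Csf1, Apoe). For patterns, the 3 nearest genes per member were computed, and the nearest are named. Some genes of these lists are not reported here.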

Additional observations from a re-analysis of the deposited data

How the results depend on the processing

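In microglia-like cells the fall of 7 of the 9 genes in the ipsilateral hemisphere passed edgeR's threshold under every alternative run, and 7 to 8 of the 9 passed when 1 library was left out. Over these fits between 1956 of 12405 genes (48 h libraries alone) and 3658 of 13318 (no scaling beyond the total) were lower. Olfml3 missed it without WT contralateral 24 h (-0.37, adjusted p = 0.0572), WT ipsilateral 24 h (-0.28, adjusted p = 0.0578), Prdx1-/- contralateral 24 h (-0.33, adjusted p = 0.0945) or Prdx1-/- ipsilateral 48 h (-0.37, adjusted p = 0.0644), in the 48 h libraries alone, with cells classed by marker score, and without the Mmp12 and Spp1 cluster. The hemisphere estimate for Fcrls changed sign to 0.16 with cells classed by marker score and to 0.20 without that cluster, which the planned limit to clusters with at least 1% of the contralateral class also removes, and ran from -0.15 to 0.064 with 1 library left out. For the genotype label, 8 genes passed in the 48 h libraries alone, where 284 of 12405 genes were lower. With cells classed by marker score, without the cluster or by DESeq2 it was 3, where 24 of 13054, 44 of 13162 and 68 of 13318 genes were lower. Without the low-count filter 1 passed, where 11 of 18996 were lower. With any 1 library left out 0 passed, where at most 7 of 13225 genes were lower. For time, 3 were lower with cells classed by marker score (as were 972 of 13054 genes) or without the cluster (930 of 13162). The estimate for time became -0.054 and -0.097 for Gpr34 under these, and that of Slc2a5 ran from -0.24 to 0.027 with 1 library left out (0.020 without Prdx1-/- contralateral 24 h). For the change of the hemisphere difference with time, 1 gene passed by DESeq2 (58 of 13318 genes were higher) and 2 without the filter (56 of 18996). Fcrls turned to 0.0083 without scaling beyond the total. Estimates for the change with the genotype label, none of which passed, reversed without the cluster to -0.20 (Tmem119), -0.29 (Siglech), -0.26 (Gpr34), -0.066 (Fcrls), -0.19 (Olfml3), -0.10 (Sparc), -0.22 (Selplg) and -0.26 (Crybb1). With cells classed by marker score they were -0.032, -0.14 and -0.095 for Tmem119, Siglech and Gpr34, and -0.026, -0.045 and -0.063 for Olfml3, Selplg and Crybb1. Siglech turned to -0.012 without the filter and to -0.019 with doublets kept, and Slc2a5 to 0.0060 under the stricter cell filter. The causes were not tested. Ipsilateral cells held a mean of 4.26 of the 9 transcripts at 2000 UMIs and 6.62 without drawing, so depth limits such counts. A block for the pairs of libraries that share genotype label and time left 8 of the 9 genes lower, as were 3163 of 13318 genes.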
